A study of Mus musculus with 6 samples.

Results

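The genes of fibroblast growth factor (FGF) and platelet-derived growth factor (PDGF) signalling were examined in lungs of male mice taken on postnatal day 6. The strain is FVB by the labels and FVB/N by the study's methods. The set took in every array probe whose symbol names an FGF, an FGF receptor, a PDGF, a PDGF receptor, a Sprouty or a Spred, and also Etv4, Dusp4 and Dusp6. It held 69 probes for 45 genes, out of 25697 probes for 18138 gene symbols on the Illumina MouseRef-8 array. The symbol pattern for receptors also took in Fgfr1op and Fgfr1op2, which are not receptors. Lungs labelled hSRY-ON were compared with lungs labelled hSRY-OFF, with 3 mice in each group and 1 array per mouse. The transgene of the study, Signalox-hSRY, is a single insertion at the H11 locus, in which the ubiquitous CAG promoter drives a loxP-flanked DsRed segment. Cre removes this segment, after which human SRY and the green reporter EGFP are made. In hSRY-ON mice the recombination was done by Cre protein left in the egg by a mother carrying Ddx4-Cre, and the mice taken for the arrays did not carry Ddx4-Cre themselves. The name hSRY-OFF stands for the unrecombined transgene. Since the study also used littermates without the transgene as controls, the genotype of the hSRY-OFF mice rests on their label. The study placed the transgene in 1 mouse line, and its promoter is active in most cell types, so any lung cell may have carried the active gene. The labels do not say which mice were littermates.

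Most FGFs are secreted signals that bind receptor tyrosine kinases together with heparan sulphate, and PDGFs are secreted signals that bind receptor tyrosine kinases of their own. Both kinds of receptor pass the signal through RAS to the kinase ERK. In the developing lung, Fgf10 and Fgf7 from the mesenchyme act on the epithelium through Fgfr2, while PDGF-A reaches the precursors of alveolar myofibroblasts through Pdgfra and PDGF-B reaches pericytes through Pdgfrb. ERK switches on genes such as Etv4, Spry4 and Dusp6, and the products of the last 2 damp the pathway.

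Values are log2 intensities after background correction and quantile normalization, and changes are hSRY-ON minus hSRY-OFF on that log2 scale. A probe was tested where 3 or more of the 6 arrays detected it (detection p under 0.05). It was called where limma gave an adjusted p under 0.05 with Benjamini-Hochberg adjustment over all 13841 probes tested. The lung identity of the samples was examined with surfactant protein C, Sftpc, at 14.28 ± 0.05 in hSRY-OFF and 14.03 ± 0.11 in hSRY-ON, and the alveolar type I marker Ager, at 13.87 ± 0.07 and 13.84 ± 0.12 (SD, n = 3). Between 13191 and 14134 probes were detected per array, and 32 to 36 of the 69 FGF, PDGF and Sprouty probes. Over the tested probes, 2 arrays correlated at 0.991 to 0.993 within hSRY-OFF, at 0.972 to 0.980 within hSRY-ON and at 0.935 to 0.959 between the groups, so the hSRY-ON lungs were the more variable. The array has no probe for human SRY, so these arrays did not measure the transgene. Precision is limited throughout by having 6 arrays.

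Of the 69 probes, 33 probes for 24 genes could be tested, and 6 of them were called. That is 18.2%, against 26.9% of all probes tested. Etv4, Pdgfrb, Spry4 and 1 of the 3 probes of Dusp6 were lower in hSRY-ON, and Fgf7 and Fgfr1op were higher. The 4 lower probes of 33 stand against 13.3% of all probes and the 2 higher against 13.6%, so calls were no more frequent here than on the array as a whole. The other 36 probes were not tested, and 29 of them were detected on no array. Group values did not overlap in 13 of the 33 probes (39.4%), 10 of them with hSRY-ON below and 3 with hSRY-ON above. Over all probes tested the groups did not overlap in 46.6%, with hSRY-ON below in 24.1% and above in 22.4%. The median change of the 33 probes was -0.19, with 21 fitted below 0, and the median change of all probes was -0.03. Of the 33 probes, 11 had an unadjusted p under 0.05. Such values were common on the array as a whole, where an unadjusted p of 0.0489 (limma, Cspg4) became an adjusted p of 0.120. The number of called probes changed when single arrays were left out, here and over all probes. Leaving out hSRY-OFF replicates 1, 2 and 3 gave 3, 1 and 3 calls. In these runs 11.2%, 12.1% and 15.5% of all probes were called. Leaving out hSRY-ON replicates 1, 2 and 3 gave 8, 4 and 6 calls, against 32.3%, 17.7% and 27.7% of all probes. Etv4 alone was called in each of the 16 alternative analyses.

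**Figure D1:**
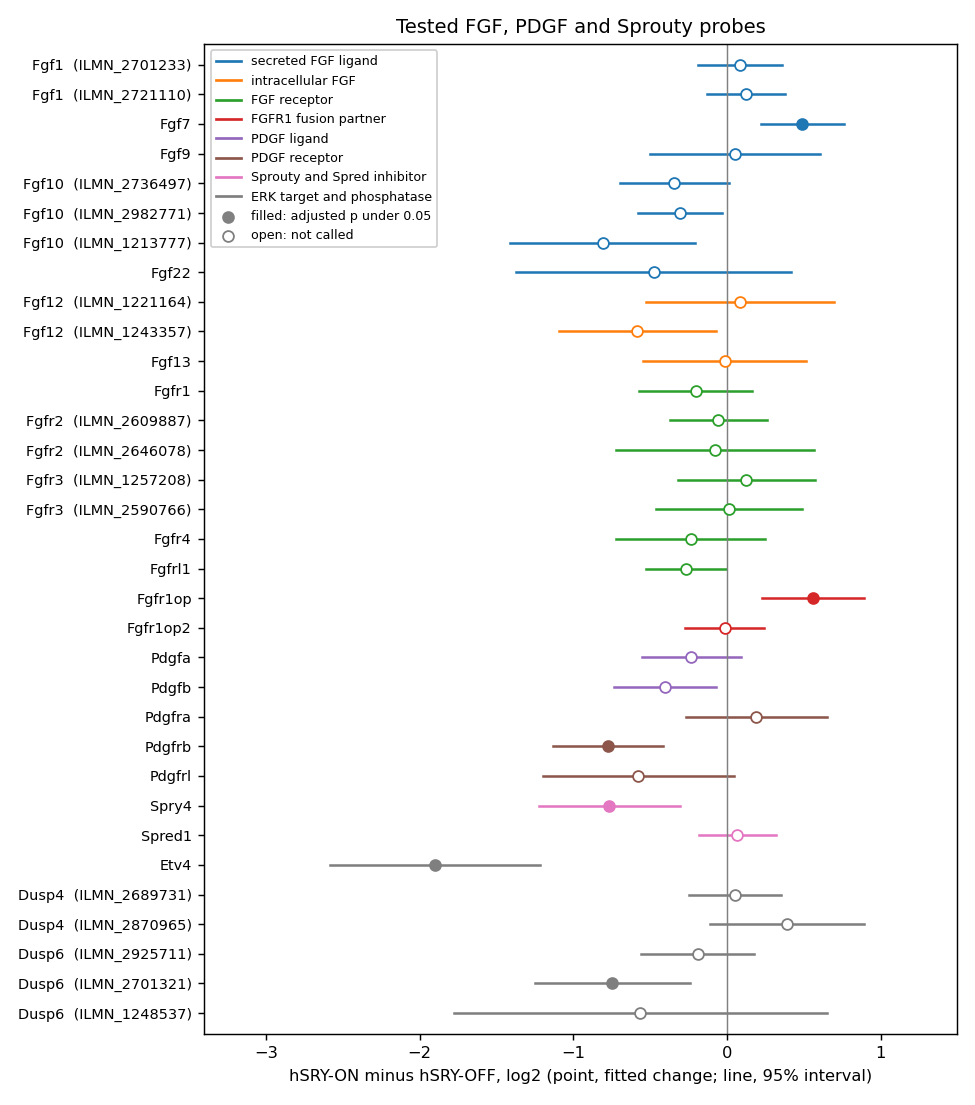
Fitted change of each tested FGF, PDGF and Sprouty probe, in log2 units of hSRY-ON minus hSRY-OFF, with its 95% confidence interval and grouped by role. The 6 called probes run from -1.90 for Etv4 to 0.56 for Fgfr1op, and most other intervals include 0.

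Among the secreted FGF ligands, the change that passed the test was a rise of Fgf7, the keratinocyte growth factor, which mesenchymal cells make and which stimulates epithelial cells. Its probe measured 8.82, 9.03 and 8.99 in hSRY-OFF and 9.43, 9.45 and 9.43 in hSRY-ON. All hSRY-ON values lay above all hSRY-OFF values, and the hSRY-ON lungs were close to each other. The rise was 0.49 ± 0.11 (SE), or 1.41-fold (limma, adjusted p = 0.0210). It missed the threshold when any of the hSRY-OFF arrays was left out (adjusted p = 0.0924, 0.0608 and 0.0609 without replicates 1, 2 and 3) and without hSRY-ON replicate 2 (0.0506). Over all alternatives the change of Fgf7 lay between 0.40 and 0.54, and its adjusted p between 0.00841 and 0.0924.

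Fgf10, which drives branching of the airways and is made by the mesenchyme at the tips of the lung buds, has 3 probes, and none was called. The first, ILMN_2736497, measured 10.10, 10.39 and 10.39 in hSRY-OFF and 9.73, 10.05 and 10.07 in hSRY-ON. The second, ILMN_2982771, measured 9.69, 9.86 and 9.91 against 9.54, 9.51 and 9.48. In both of them every hSRY-ON lung lay below every hSRY-OFF lung. The third, ILMN_1213777, measured 7.24, 7.38 and 6.71 in hSRY-OFF and 5.96, 6.18 and 6.76 in hSRY-ON, and here the highest hSRY-ON value passed the lowest hSRY-OFF value. The fitted changes were -0.34, -0.31 and -0.81, with limma adjusted p = 0.134, 0.0901 and 0.0553. The third probe was called in 7 of the 16 alternatives, over which its adjusted p ran from 0.0198 to 0.171. Of these 7, 1 left out hSRY-OFF replicate 3 (adjusted p = 0.0477) and 1 left out hSRY-ON replicate 3 (change -1.04, adjusted p = 0.0198). The second probe was called without background correction (adjusted p = 0.0441, range 0.0441 to 0.242).

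None of the remaining tested ligands was called. The probes of Fgf1, which binds all FGF receptors, differed by 0.08 and 0.12 (limma, adjusted p = 0.613 and 0.430). For the second of these the hSRY-ON values, 7.16 to 7.21, lay just above the hSRY-OFF values, 7.01 to 7.14. Fgf9, a ligand from the lung epithelium and mesothelium, differed by 0.05, with a 95% interval of -0.50 to 0.61. Fgf22 was at 6.58 ± 0.32 in hSRY-OFF and 6.10 ± 0.78 in hSRY-ON (SD, n = 3), and a single lung, hSRY-ON replicate 1 at 5.21, set most of that spread. The other 13 secreted ligands of the set had no probe that could be tested. Fgf8 was detected on 1 hSRY-ON array, and Fgf2, Fgf3, Fgf4, Fgf5, Fgf6, Fgf15, Fgf16, Fgf17, Fgf18, Fgf20, Fgf21 and Fgf23 on no array.

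Fgf12 and Fgf13 belong to the intracellular FGFs, which are not secreted and bind voltage-gated sodium channels. Neither was called. The Fgf12 probe ILMN_1243357 measured 5.54, 5.57 and 5.87 in hSRY-OFF and 5.09, 4.67 and 5.47 in hSRY-ON, where 1 array detected it. Its groups did not overlap, with a change of -0.58 (limma, adjusted p = 0.0864), and it passed the threshold without hSRY-ON replicate 3 (change -0.78, adjusted p = 0.0261, range over alternatives 0.0261 to 0.230). The other Fgf12 probe differed by 0.09 and the tested Fgf13 probe by -0.01, both within the spread between lungs. A further Fgf13 probe was detected on 1 hSRY-ON array. Fgf11 and Fgf14 were not detected on any array.

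No FGF receptor probe was called of the 7 tested (limma), and 1 had an unadjusted p under 0.05. That probe was Fgfrl1, a receptor without a tyrosine kinase domain. It measured 8.89, 9.02 and 8.95 in hSRY-OFF and 8.68, 8.74 and 8.63 in hSRY-ON. The groups did not overlap, and the change was -0.27 ± 0.11 (SE; limma, adjusted p = 0.111). For Fgfr1, whose ligands act mainly on mesenchyme, the change was -0.20 with a 95% interval of -0.57 to 0.16. Fgfr2, the receptor through which Fgf7 and Fgf10 reach the epithelium, was read by 2 tested probes at -0.06 (95% interval -0.37 to 0.26) and -0.08 (95% interval -0.72 to 0.57). The remaining Fgfr2 probe was detected on 2 hSRY-OFF arrays only and was not tested. The probes of Fgfr3 differed by 0.13 and 0.01, and that of Fgfr4, which has a part in alveolar development, by -0.24. Most of the 7 intervals reach changes of the size called for Fgf7, so a receptor that was not called is not shown to be unchanged.

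The genes Fgfr1op and Fgfr1op2 owe their names to chromosomal fusions with FGFR1 in blood cancers. Fgfr1op, now named Cep43, encodes a centrosomal protein. It measured 6.76, 6.96 and 7.01 in hSRY-OFF and 7.66, 7.33 and 7.42 in hSRY-ON. All hSRY-ON values were higher, and the rise was 0.56 ± 0.14 (SE), or 1.47-fold (limma, adjusted p = 0.0266). It missed the threshold without each of the hSRY-OFF arrays (adjusted p = 0.105, 0.0808 and 0.0585 without replicates 1, 2 and 3) and with median scaling (0.0560), and was 0.29 without background correction, where it was called. Its adjusted p ran from 0.0213 to 0.105 over the alternatives. Fgfr1op2 was at 8.75 ± 0.09 in hSRY-OFF and 8.74 ± 0.03 in hSRY-ON (SD, n = 3).

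Of the PDGF ligands, Pdgfb, made chiefly by endothelial cells, measured 12.39, 12.36 and 12.11 in hSRY-OFF and 12.06, 11.85 and 11.75 in hSRY-ON. Every hSRY-ON lung lay below every hSRY-OFF lung, but the change of -0.40 ± 0.14 (SE) missed the threshold (limma, adjusted p = 0.0725). It passed in 3 alternatives, without background correction (adjusted p = 0.0320), with a variance trend and robust estimation (0.0247) and without hSRY-ON replicate 1 (0.0398), and over all of them the adjusted p ran from 0.0247 to 0.218. Among the endothelial markers of the array, 4 of 10 tested were lower and none higher, with a median change of -0.41. Marker genes were read from their brightest tested probe, by which 27.9% of the 10292 genes tested were called in either direction. Their summed normalized intensity was 87995 to 93929 in hSRY-OFF and 72717 to 73695 in hSRY-ON, and Kdr, 1 of the 11 markers, was detected on no array. The part of endothelial content in the Pdgfb values was not tested. In whole lung, fewer cells of a type and less RNA per cell cannot be told apart.

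Pdgfa, the epithelial ligand of Pdgfra, lay between 11.93 and 12.02 in hSRY-OFF and measured 11.97, 11.71 and 11.57 in hSRY-ON. The groups overlapped, and the change was -0.23 with a 95% interval of -0.55 to 0.09 (limma, adjusted p = 0.249). Pdgfc was detected on no hSRY-OFF and 2 hSRY-ON arrays and so was not tested. Its values, 4.86 to 5.09 in hSRY-OFF and 5.31 to 5.53 in hSRY-ON, lay near background, and with no detection filter its probe was 0.46 higher and passed (adjusted p = 0.0376). Pdgfd was detected on no array.

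Among the PDGF receptors, Pdgfrb, found on pericytes and smooth muscle, was called and was lower in hSRY-ON. It measured 9.67, 10.04 and 9.92 in hSRY-OFF and 8.95, 9.06 and 9.30 in hSRY-ON. The lowest hSRY-OFF lung was above the highest hSRY-ON lung, and the fall was -0.77 ± 0.15 (SE), or 1.71-fold (limma, adjusted p = 0.0121). Without hSRY-OFF replicate 2 it missed the threshold (change -0.69, adjusted p = 0.0558, range over the alternatives 0.00440 to 0.0558), and it was called in the other 15 alternatives. Pericyte markers did not all go the same way. Of 6 tested, 1 was called (16.7%, against 27.9% of all genes read in this way). That was Abcc9, a potassium channel subunit, higher by 0.99 (limma, adjusted p = 0.00868). Notch3, Cspg4 and Rgs5 were not called at -0.31, -0.38 and -0.56 (adjusted p = 0.0851, 0.120 and 0.151). Kcnj8 at 0.07 and Higd1b at -0.21 overlapped between groups and were not called either (limma, adjusted p = 0.871 and 0.495). The summed normalized intensity of the pericyte markers was 4482 to 4763 in hSRY-OFF and 3613 to 4466 in hSRY-ON, so the groups were only just apart. Higd1b, the brightest of these markers, was at 11.32 ± 0.09 in hSRY-OFF and 11.10 ± 0.43 in hSRY-ON (SD, n = 3). Of 6 smooth muscle and myofibroblast markers, 3 were called lower (Myh11, -1.12; Actg2, -1.12; Acta2, -0.62) and none higher. Not called were Tagln at -0.26 (limma, adjusted p = 0.164) and Hhip, at 8.45 ± 0.13 in hSRY-OFF and 7.45 ± 0.83 in hSRY-ON (SD, n = 3; adjusted p = 0.0905). Eln, elastin, was 0.33 higher and not called (adjusted p = 0.0592), though every hSRY-ON lung lay above every hSRY-OFF lung. The summed intensity of this list was 50968 to 54905 in hSRY-OFF against 41550 to 47551 in hSRY-ON. The part of these cells in the Pdgfrb values was not tested.

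Pdgfra, which marks lipofibroblasts and the precursors of alveolar myofibroblasts, measured 10.69, 10.84 and 11.19 in hSRY-OFF and 11.07, 11.40 and 10.83 in hSRY-ON. The values overlapped, and the change was 0.19 with a 95% interval of -0.27 to 0.65 (limma, adjusted p = 0.495), so the data do not separate the groups at this receptor. The difference between the changes of Pdgfrb and Pdgfra was not tested. Of 6 fibroblast markers tested, Wnt2 (-2.18), Meox2 (-1.65) and Gyg (-1.15) were lower and Plin2, a coat protein of lipid droplets, was higher by 1.02. Tcf21 differed by 0.23 and was not called, and the summed intensity of the list overlapped between groups (16766 to 18105 in hSRY-OFF, 14989 to 20252 in hSRY-ON). Pdgfrl, a secreted receptor-like protein, measured 8.82, 8.99 and 8.93 in hSRY-OFF and 8.53, 7.71 and 8.77 in hSRY-ON. Its groups did not overlap, but hSRY-ON replicate 2 stood well below the others and the change of -0.58 was not called (limma, adjusted p = 0.145).

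**Figure D2:**
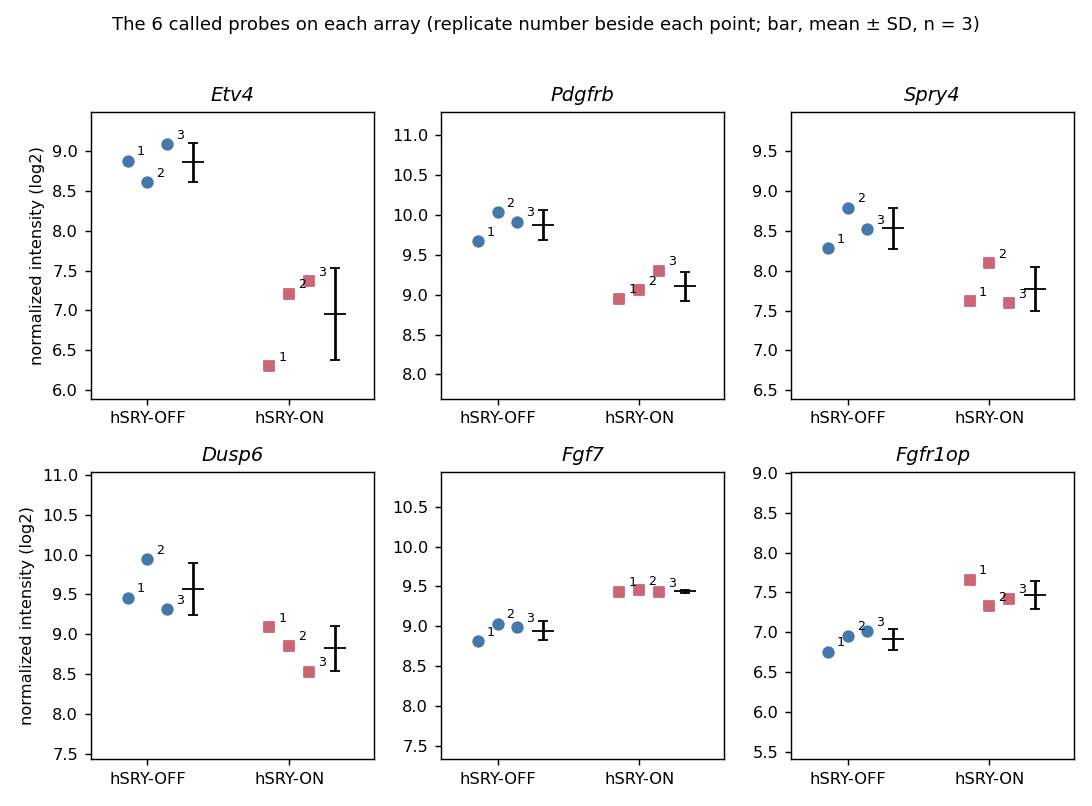
Normalized log2 intensity of the 6 called probes on each of the 6 arrays, with the group mean and SD. Each point is 1 lung, and in all 6 probes the hSRY-ON and hSRY-OFF values do not overlap.

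Sprouty and Spred proteins are intracellular brakes on receptor tyrosine kinase signalling. Of the Sproutys on the array, Spry4 was measurable, and it was lower in hSRY-ON. Its probe measured 8.28, 8.79 and 8.53 in hSRY-OFF and 7.62, 8.09 and 7.60 in hSRY-ON. The groups did not overlap, and the fall was -0.76 ± 0.19 (SE), or 1.70-fold (limma, adjusted p = 0.0276). The call was lost without hSRY-OFF replicate 2 (adjusted p = 0.0997), hSRY-OFF replicate 3 (0.0781), hSRY-ON replicate 1 (0.0512) or hSRY-ON replicate 3 (0.0631), within a range of 0.0169 to 0.0997 over all alternatives. Spry2 and Spry3 were detected on no array. Spred1, which brings the RAS inhibitor neurofibromin to the membrane, was at 11.08 ± 0.06 in hSRY-OFF and 11.14 ± 0.01 in hSRY-ON (SD, n = 3; limma, adjusted p = 0.672). The Spred2 probes ILMN_2590010 and ILMN_2598998 were detected on 1 hSRY-OFF array each, ILMN_2969032 of the same gene on no array, and Spred3 on 1 hSRY-ON array.

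Etv4, an ETS transcription factor induced by FGF signalling and active in the distal lung epithelium, had the largest change of the 33 tested probes. It measured 8.88, 8.61 and 9.09 in hSRY-OFF and 6.30, 7.21 and 7.36 in hSRY-ON. The lowest hSRY-OFF value exceeded the highest hSRY-ON value by more than the range within either group, and hSRY-ON replicate 1 was the lowest of the 6 lungs. The group means were 8.86 ± 0.24 and 6.96 ± 0.58 (SD, n = 3), a fall of -1.90 ± 0.29 (SE) or 3.73-fold (limma, adjusted p = 0.00540). The call held in all 16 alternatives, with a change of -2.10 to -1.18 and an adjusted p of 0.00130 to 0.0270. The smallest change, -1.18, was that without background correction.

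Dusp6, a phosphatase that removes the activating phosphates of ERK, has 3 probes that gave different results. ILMN_2701321 measured 9.46, 9.94 and 9.31 in hSRY-OFF and 9.09, 8.86 and 8.53 in hSRY-ON, without overlap. It fell by 0.75 ± 0.21 (SE), or 1.68-fold (limma, adjusted p = 0.0409). This call was lost without any 1 of 5 arrays (adjusted p = 0.0956, 0.124 and 0.0560 without hSRY-OFF replicates 1, 2 and 3, and 0.0933 and 0.0875 without hSRY-ON replicates 2 and 3) and with no detection filter (0.0599), and ranged from 0.0204 to 0.124. ILMN_2925711 measured 12.69, 13.08 and 13.03 in hSRY-OFF and 12.90, 12.78 and 12.56 in hSRY-ON. Its values overlapped, at a change of -0.19 with a 95% interval of -0.56 to 0.18 (limma, adjusted p = 0.395). ILMN_1248537 measured 6.69, 7.48 and 7.40 in hSRY-OFF and 7.87, 6.04 and 5.96 in hSRY-ON. The first hSRY-ON lung was the highest of the 6 and the other 2 were the lowest, so the change of -0.56 was not called (limma, adjusted p = 0.445). Without hSRY-ON replicate 1 it was -1.20 and passed (adjusted p = 0.0165, range 0.0165 to 0.783). All 3 probes were fitted below 0, and the gene is lower by 1 probe only.

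Dusp4, a nuclear phosphatase of the same family, was read by 2 tested probes. ILMN_2689731 differed by 0.05 (limma, adjusted p = 0.780). ILMN_2870965 measured 6.38, 6.47 and 6.42 in hSRY-OFF and 6.32, 7.07 and 7.05 in hSRY-ON. Again hSRY-ON replicate 1 stood apart from the other hSRY-ON lungs, and the change was 0.39 (limma, adjusted p = 0.213). Without that array it was 0.64 and passed (adjusted p = 0.00978, range 0.00978 to 0.455).

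**Figure D3:**
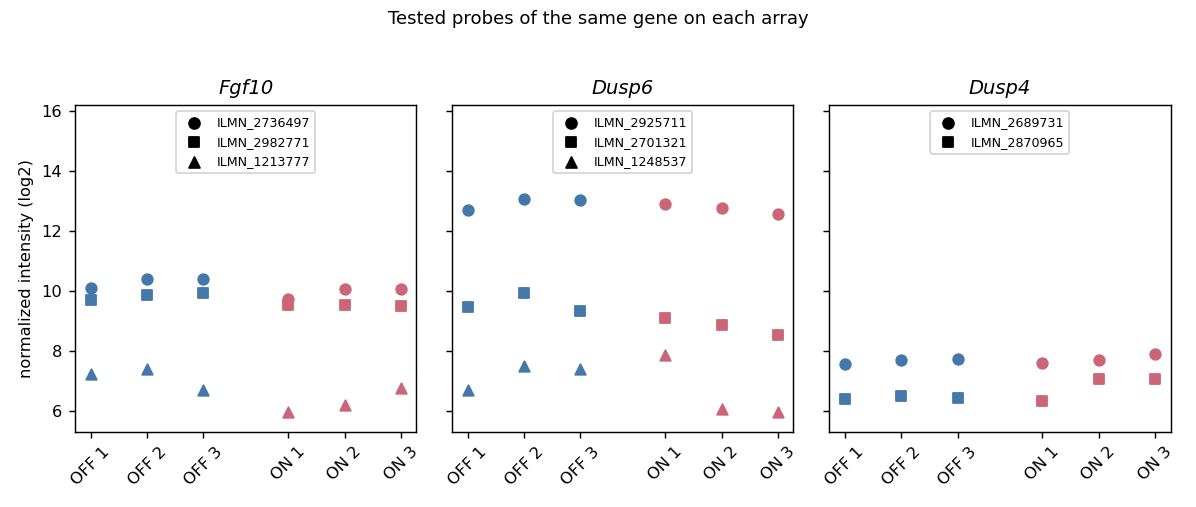
Normalized log2 intensity of every tested probe of Fgf10, Dusp6 and Dusp4 on each array, with 1 symbol per probe, blue for hSRY-OFF and red for hSRY-ON. All Fgf10 probes were fitted lower in hSRY-ON and none was called, 1 of 3 Dusp6 probes was called, and hSRY-ON replicate 1 departs from the other hSRY-ON lungs in ILMN_1248537 of Dusp6 and ILMN_2870965 of Dusp4.

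Epithelial cells receive Fgf7 and Fgf10 signals and express Etv4, so epithelial markers are given beside these genes. The share of all genes called, 27.9%, is the background for these counts. Of the alveolar type II markers 2 of 6 (33.3%) were higher, Sftpb by 0.67 and Abca3 by 0.60, and none lower. A second Abca3 probe differed by -0.07. The list was split, with 4 genes fitted above 0 and 2 below. Sftpc at -0.25 and Lamp3 at -0.31 were not called (limma, adjusted p = 0.150 and 0.106). In both, every hSRY-ON lung lay below every hSRY-OFF lung. The median change of the list was 0.34, and its summed intensity was 43805 to 46455 in hSRY-OFF against 49392 to 54496 in hSRY-ON. None of 5 alveolar type I markers was called (limma), and none had an unadjusted p under 0.05. Airway epithelial markers were higher in 3 of 5, at a summed intensity of 52404 to 54373 against 63390 to 77556. Proliferation genes, which FGF and PDGF signals promote, were lower in 5 of 6 and higher in none, with a summed intensity of 8309 to 10386 in hSRY-OFF and 2777 to 6086 in hSRY-ON. Macrophage markers were higher in 3 of 5, with sums of 2856 to 3119 and 5527 to 9166. Lists for tissues that could be carried over in dissection were read as well. Cardiac muscle markers were higher in 1 of 6 (Nppa, 5.55) and lower in 2. Their summed intensity overlapped between groups (7166 to 9645 in hSRY-OFF, 4460 to 9376 in hSRY-ON). Thymocyte markers were lower in 2 of 3. Platelet markers were lower in 1 of 6, but 5 were fitted above 0 and the sums overlapped (1217 to 1505 and 1253 to 1725). The 1 liver marker that could be tested, Apoa1, was detected on no hSRY-OFF and 3 hSRY-ON arrays. It passed the detection filter through hSRY-ON alone, so its higher call is not read as a change of the liver list. Of these and the mesenchymal lists, the markers detected on no array were Cnn1, Col13a1, Hopx, Rtkn2, Dnah5, Msr1, Ryr2, Rag1, Dntt, Cd4, Alb, Ttr, Fgb, Tat, Ccna2 and Bub1. The part of any of these cell types or states in the FGF and PDGF values was not tested.

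The promoters of the genes were examined for short sequence motifs, because SRY belongs to the SOX family and Etv4 to the ETS family of DNA-binding proteins. RefSeq windows on GRCm38.p6, from 250 bases before to 50 after a start site, matched 31 of the 45 genes and gave 40 windows. Of the 6 called genes, 3 had a window. Etv4, Pdgfrb and Spry4 had none, so their promoters were not searched. Those of Fgf7 and Dusp6 are shown as the promoters of a gene that was higher and of a gene lower by 1 of its probes, at chr2:126034408-126034707 and chr10:99262981-99263280 on the plus strand. Capitals mark a match to AACAAT, a SOX-type motif, searched on both strands along with the ETS-type motif CCGGAA.
Fgf7: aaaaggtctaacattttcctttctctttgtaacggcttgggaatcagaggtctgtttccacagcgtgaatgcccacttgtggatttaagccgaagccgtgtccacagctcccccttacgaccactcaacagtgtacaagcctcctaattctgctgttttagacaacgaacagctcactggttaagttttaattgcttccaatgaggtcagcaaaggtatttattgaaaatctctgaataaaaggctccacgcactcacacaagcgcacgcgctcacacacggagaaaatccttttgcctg
Dusp6: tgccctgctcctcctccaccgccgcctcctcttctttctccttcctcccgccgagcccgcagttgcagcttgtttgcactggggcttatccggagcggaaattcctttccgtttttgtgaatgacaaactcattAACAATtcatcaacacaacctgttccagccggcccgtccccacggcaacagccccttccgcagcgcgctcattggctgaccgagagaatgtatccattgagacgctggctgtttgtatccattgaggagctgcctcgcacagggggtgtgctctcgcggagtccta
The Dusp6 window held 1 match to AACAAT, on the plus strand with its first base at position -116 from the start, and none to CCGGAA. The Fgf7 and Fgfr1op windows held no match to either motif. Over the windows of the set, 2 held AACAAT (Dusp6 and Fgf23) and 5 held CCGGAA (Fgf5, Fgf12, Fgfr4, Fgfrl1 and Spry2). No window held both, so no matches overlapped. Over all 32851 RefSeq promoters of this length, 10.7% held AACAAT and 14.9% held CCGGAA. A match of these letters is not evidence of binding.

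Beyond the set, 76 genes that act in the same pathways were listed, and the array held 68 of them. They were read from their brightest tested probe, and 54 could be tested. Of these, 4 were higher and 8 lower, or 22.2%, against 27.9% of the 10292 genes tested in this way. The median change of the 54 was -0.07. The 12 calls with all arrays became 4 (1 higher, 3 lower) when hSRY-OFF replicate 1 was dropped, and likewise 4 (1 higher, 3 lower) when replicate 2 of that group was. In these runs the share of all probes called fell as well, from 26.9% to 11.2% and 12.1%. Dropping hSRY-ON replicate 3 raised the number of higher genes to 7, and dropping hSRY-OFF replicate 3 left 5 lower genes, as did dropping hSRY-ON replicate 2. The calls lay among the extracellular partners and the ERK response genes.

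Heparan sulphate and its carriers hold FGFs at the cell surface, and 5 of 12 tested genes of this list were called. That is 41.7%, against 27.9% of all genes read in this way. Fgfbp1, which releases FGFs from the matrix, was the largest at 7.56 ± 0.20 in hSRY-OFF and 9.43 ± 0.81 in hSRY-ON (SD, n = 3), a rise of 1.87 (limma, adjusted p = 0.0129). The glypicans, which carry heparan sulphate on the membrane, went in opposite directions. Gpc3 rose by 0.51 (adjusted p = 0.0133) and Gpc1 fell by 0.71 (adjusted p = 0.00610). Ext1, which builds the sugar chain, fell by 0.64 (adjusted p = 0.0347) and the sulphotransferase Hs2st1 by 0.47 (adjusted p = 0.0314). The median change of the list was 0.10.

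Of the 24 adaptor and RAS-ERK cascade genes that could be tested, from Frs2 and Grb2 to the kinases, none was called (limma), and 3 had an unadjusted p under 0.05. The smallest adjusted p was 0.0741, the median change was -0.07 and the range ran from -0.59 to 0.62. The ERK response list had 7 of 18 called (38.9%), 5 lower and 2 higher, with a median change of -0.32. Over all genes read in this way 27.9% were called, and the difference between the lists was not tested. Etv1, an ETS factor of the same subgroup as Etv4, was at 8.72 ± 0.23 in hSRY-OFF and 7.23 ± 0.28 in hSRY-ON (SD, n = 3), and fell by 1.49 (limma, adjusted p = 0.00298). Dusp10, a phosphatase of stress-activated kinases, fell by 1.02 (adjusted p = 0.00692), and Phlda1, an early growth factor response gene, by 0.81 (adjusted p = 0.0133). Higher were Spsb1, a ubiquitin ligase adaptor, by 1.25 (adjusted p = 0.00588) and Errfi1, an inhibitor of the EGF receptor, by 1.13 (adjusted p = 0.0390). The third member of the ETS subgroup, Etv5, was not called at -0.30 (adjusted p = 0.220). The FGF antagonist Il17rd was read by 2 tested probes. The brighter, which stands for it in the counts, was not called at -0.76 (limma, adjusted p = 0.0537). The other was detected on all hSRY-OFF arrays and on no hSRY-ON array, at means of 5.66 and 4.93. It passed the detection filter through hSRY-OFF alone, so its lower call (limma, adjusted p = 0.0188) is not read as a further result for the gene. Etv5 and Il17rd were picked for mention after their values were seen.

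**Figure D4:**
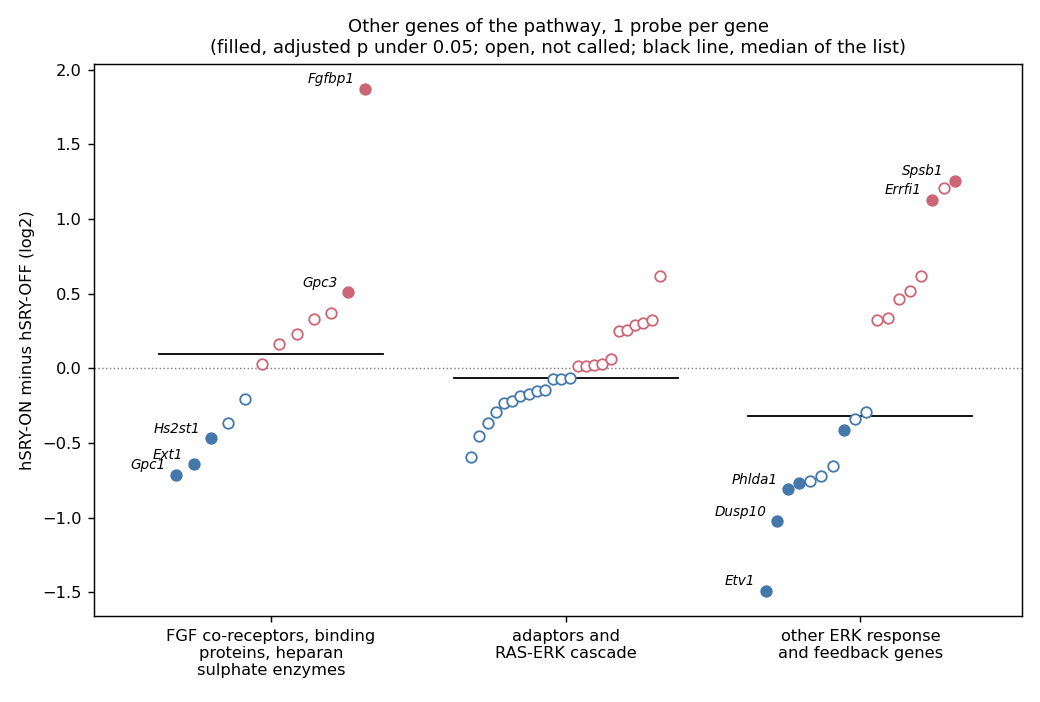
Fitted change of the 54 tested pathway genes outside the set, in log2 units of hSRY-ON minus hSRY-OFF, in 3 lists with the median of each as a line. Filled points are genes with an adjusted p under 0.05; none of the 24 adaptor and RAS-ERK cascade genes is filled, and the largest rise is Fgfbp1 at 1.87.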

How the data were processed

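Total RNA from the lungs of 6 mice was labelled with biotin and hybridised to Illumina BeadChips. The authors deposited, for each probe and array, an intensity on a linear scale, neither background-corrected nor normalized, and a detection p-value. The program that summarised the beads is not given in the sources used here. The study analysed its arrays with TCC, a method for counts. Because the deposited values are intensities, limma 3.58.1 in R 4.3.3 was used instead. Groups, replicate numbers, strain, sex and age came from the sample labels.

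Processing followed neqc: background correction by way of the detection p-values, addition of an offset (16), quantile normalization of the arrays, and log2. Near background the offset compresses the scale, so changes of dim probes are understated, and quantile normalization removes any shift of all probes together. A probe had to be detected (p under 0.05) on 3 or more of the 6 arrays, as 13841 of 25697 were (53.9%). Groups were compared with lmFit and eBayes, two-sided, with no covariate, and the Benjamini-Hochberg adjustment ran over the 13841 probes (threshold 0.05). No arrays held identical values. The mice were taken as the replicates, and litters are not given, so p-values measure the spread between these lungs. In simulated data (16623 probes tested), changes of 1 were planted in 98 probes and changes of 2 in 102 probes, on the log2 scale. Of these, 36.7% and 76.5% were called, and 7.32% of the 123 calls were on unchanged probes. Far fewer probes changed there than the 3728 called in the data. The adjusted p depends on that share, so these rates do not give the power of this comparison.

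The members and lists were chosen with earlier results of these data known. All tested member probes are named. From each pathway list, at most 3 called genes in each direction, by smallest p, are named. Probes of a gene were kept apart, and pathway and marker genes were read from the tested probe with the highest mean. Older symbols were matched to current names where a synonym belongs to 1 gene only, and promoters taken, from RefSeq tables (GRCm38.p6). The files give no genome coordinates. The 16 alternatives were other background corrections, normalizations, filters and variance models, array weights, a block on replicate number, and leaving out each array.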

Additional observations from a re-analysis of the deposited data

How the results depend on the processing

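Of 524 pairs of a tested FGF, PDGF or Sprouty probe and an alternative, 465 kept their direction and side of the threshold, 21 lost the call, 14 gained one and 24 changed sign. All sign changes were in probes that were not called. The alternatives were 16 in number, of which 6 left out an array. Some could not be fitted for Fgf12 and Fgf22 probes that failed their filter. With median scaling 1 member was called higher, and the sign turned for Fgfr3 (ILMN_2590766, -0.0812) and Dusp4 (ILMN_2689731, -0.0357). With array weights it turned for Fgf9 (-0.0453), Fgf12 (ILMN_1221164, -0.0082), Fgf13 (0.0170) and Fgfr3 (ILMN_2590766, -0.0626), and with cyclic loess for Fgf13 (0.0023) and Fgfr1op2 (0.0189). Leaving out an array gave changes of -0.17 to 0.30 for Fgf9, -0.14 to 0.28 for Fgf12 (ILMN_1221164), -0.21 to 0.15 for Fgf13, -0.11 to 0.0395 and -0.36 to 0.20 for Fgfr2, -0.0377 to 0.27 and -0.15 to 0.17 for Fgfr3, -0.0591 to 0.0269 for Fgfr1op2, and -0.0277 to 0.11 for Dusp4 (ILMN_2689731). It gave 1 to 8 called member probes (0 to 3 higher, 1 to 5 lower), 4 to 15 called pathway genes (1 to 7 higher, 3 to 11 lower) and 1504 to 4384 called probes of the array (912 to 2052 higher, 592 to 2332 lower). The cause was not tested. The other alternatives gave 4 to 8 called member probes, 11 to 15 pathway genes and 2655 to 4122 probes. Same-numbered arrays of both groups did not deviate together (correlations -0.107, 0.0957 and -0.0927), so the numbers are not taken to pair mice. With a replicate block, 4 member probes were called (Etv4, Pdgfrb, Spry4 and Dusp6), 0 of them higher, with an adjusted p of 0.0584 for Fgf7 and 0.0725 for Fgfr1op. The signal over background limits what can be said of the 36 untested probes, which lay at 4.41 to 5.89.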
